A study of Mus musculus with 8 samples.

Results

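Imprinted genes are read mainly from the allele of 1 parent. The set described here holds 42 named mouse genes of that class, found by gene symbol among the 19950 genes of the deposited table, and all 42 were present. Of these, 18 are maternally and 24 paternally expressed by textbook assignment; 30 lie in 8 loci with 2 or more members, and 12 lie alone. The 8 libraries came from whole embryos of embryonic day 6.5, at the onset of gastrulation: 4 from embryos mutant for Axin1 and Axin2 and 4 from WT embryos. AXIN proteins are scaffolds of the β-catenin destruction complex, which keeps canonical WNT signalling low; the comparison asks how gene expression depends on them. The sources used here give no allele structures, strain or litters, and p-values therefore measure only the spread between these embryos. Values are gene counts that the authors scaled with 1 size factor per library, given here as scaled counts, and replicates carry the numbers 1, 2, 4 and 5 of the deposited columns.

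At most imprinted loci, the allele that is read is set by DNA methylation laid down in the egg or the sperm at an imprinting control region, which acts on neighbouring genes, often through a long non-coding RNA or an insulator bound by CTCF. Some genes, among them Sfmbt2, Gab1 and Slc38a4, are instead imprinted through histone H3K27 methylation inherited from the egg. Many imprinted genes act on growth and on the placenta: paternally expressed Igf2 promotes growth, and maternally expressed Cdkn1c, Phlda2 and Grb10 restrain it. Whole-gene counts do not tell the parental alleles apart, so every value below is the sum of both.

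Libraries held 26615732 to 36778164 reads assigned to genes. Axin1 transcripts averaged 1996 ± 204 scaled counts in mutants and 4565 ± 1081 in WT (SD, n = 4 each; log2 fold change -1.16, adjusted p = 0.00269), and Axin2 averaged 370.5 ± 113 in mutants and 266 ± 32.6 in WT (adjusted p = 0.19). The adjusted p-values here come from limma over 15600 genes, with Benjamini-Hochberg adjustment and a threshold of 0.05. The libraries also differed in tissue markers. All 6 epiblast markers tested were lower, with summed scaled counts of 28966 to 38362 in mutants and 112649 to 125576 in WT. All 6 tested markers of lateral and extraembryonic mesoderm were higher, with sums of 12274 to 33103 in mutants and 2866 to 6629 in WT. Of 9 tested markers of maternal decidua, the uterine tissue around the embryo, 7 were higher: Tdo2, Pgr, Esr1, Des, Col1a1, Col3a1 and Acta2. Only Prl8a2, Tdo2, Pgr and Esr1 were named as defining decidua, and the others in the list may come from other tissue. The sums over the list were 5495 to 64942 in mutants and 546 to 2317 in WT. Mutant replicates 4 and 5 held the most and replicate 2 the least. Of the 10 listed decidua markers, Lum was at 0 in all WT libraries and in mutant replicate 1, and no other was at 0 in any library. Prl8a2 was not called, with 135, 479, 6283 and 6056 in mutants and 1129, 793, 21.7 and 79.3 in WT. In mutant replicate 2, Tdo2 was 97.6, against 4.74 to 142 in WT. Pgr, at 207, and Esr1, at 22.1, were above WT there (at most 101 and 15.2). Col1a1 was 3421 in that library, against 36.4 to 174 in WT, and made most of its marker sum. In mutant replicate 1, Col1a1 at 7837 and Des at 7413 were the largest parts of a sum of 19953. How much of each marker came from the embryo itself was not tested. None of 5 extraembryonic ectoderm markers passed. Their sum was 5590 in mutant replicate 1, against 11916 to 20915 in the other mutants and 15490 to 17005 in WT. Ectoplacental cone and giant cell markers, with none of 4 called, summed to 1279 to 10587 in mutants and 1640 to 14443 in WT. Mutant replicate 5 and WT replicate 2 were highest. None of 7 parietal endoderm markers passed, with sums of 46456 to 67666 in mutants and 42275 to 130491 in WT. Of 8 visceral endoderm markers, only Afp was called, as lower. None of 3 tested maternal blood and immune markers passed, with sums of 2082 to 5169 in mutants and 165 to 2980 in WT. Y-linked transcripts were present in all 4 mutants and in WT replicates 1 and 4, and summed to at most 14.2 in WT replicates 2 and 5. The part of these differences in the results below was not tested, except where a value is given.

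Of the 42 genes, 40 reached 10 scaled counts in 4 or more libraries and could be tested. Of these, 11 were higher in mutants (Plagl1, Asb4, Phlda2, Dlk1, Nnat, Peg3, Cdkn1c, Sgce, Igf2, Cd81 and Gnas) and 2 were lower (Snrpn and Magel2). The 13 make 32.5% of the 40, against 15.6% of all 15600 genes tested, and 8.03% of all genes were called higher and 7.55% lower. The members, like the other lists below, were chosen with earlier results of these data known, so these shares only describe the set. The median log2 fold change was 0.25 over the 40 genes and -0.0018 over all genes tested. By textbook allele, 5 of 17 maternally and 6 of 23 paternally expressed genes were higher, and 0 of 17 and 2 of 23 were lower. Mutant and WT values did not overlap in 14 genes that were higher and 3 that were lower; over all genes 22.4% did so, 11.2% in each direction. The 4 genes of these 17 without a call were H19, Usp29, Zim1 and Mkrn3. In a whole embryo, a change in the number of cells of a type and a change in RNA per cell cannot be told apart. The count of higher genes was 7 in the 6 libraries that carry Y-linked transcripts (Y-positive below) and 6 when the decidua marker level was a covariate, while the count of lower genes was 2 in both of these fits. Over all genes the count of higher genes was 528 in the Y-positive libraries and 202 with the covariate, against 1253 in all 8 libraries without it. The decidua marker sums did not overlap between genotypes (5495 to 64942 in mutants, 546 to 2317 in WT). The covariate and genotype can therefore not be fully told apart. A call lost with the covariate does not show that the difference follows decidua.

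**Figure D1:**
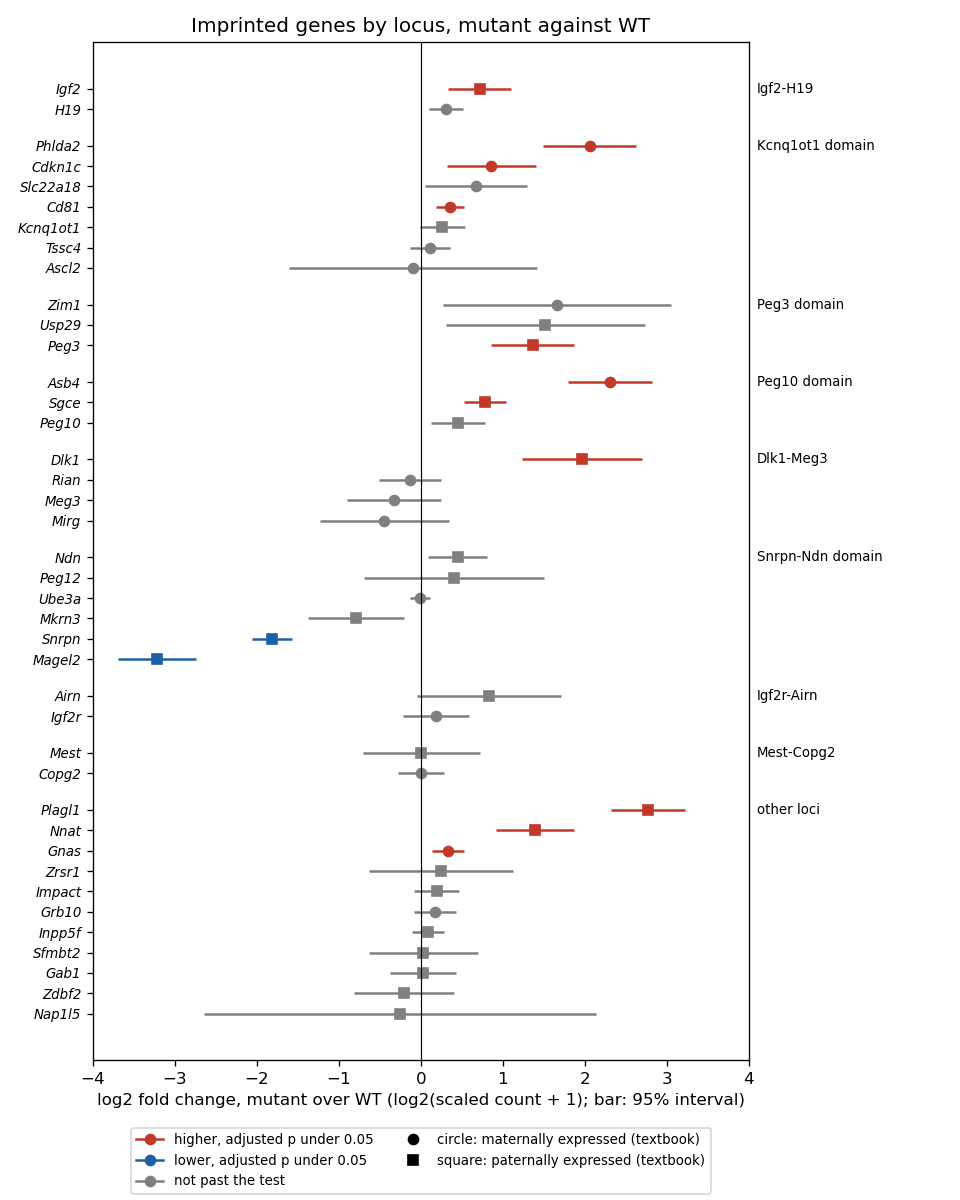
Log2 fold change of mutant over WT on the log2(scaled count + 1) scale for the 40 tested imprinted genes, grouped by locus; points are estimates, bars 95% intervals, circles maternally and squares paternally expressed genes. Red marks the 11 genes called higher and blue the 2 called lower, Snrpn and Magel2, which share a locus.

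Promoter sequences are shown for the 4 largest increases, for both decreases and for Ndn, the neighbour of Magel2 that did not fall with it. They come from RefSeq tables of GRCm38.p6, the assembly of mm10, and run from 250 bases before to 50 after an annotated start, 5′ to 3′ on the gene's strand, with CpG dinucleotides in capitals because methylation at CpG distinguishes the parental alleles at imprinting control regions. Methylation was not measured here. RefSeq lists 4 starts for Snrpn, and the one with most CpG is shown. It lists 2 starts for Asb4, and the first listed is shown.
Plagl1 promoter, chr10:13090582-13090881, plus strand: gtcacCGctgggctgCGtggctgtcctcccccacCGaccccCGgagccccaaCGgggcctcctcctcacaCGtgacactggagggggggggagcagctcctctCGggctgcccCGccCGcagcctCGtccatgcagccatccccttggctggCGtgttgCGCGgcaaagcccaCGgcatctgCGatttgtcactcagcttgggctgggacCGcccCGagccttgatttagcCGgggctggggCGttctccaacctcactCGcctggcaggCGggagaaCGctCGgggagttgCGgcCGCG
Asb4 promoter, chr6:5383136-5383435, plus strand: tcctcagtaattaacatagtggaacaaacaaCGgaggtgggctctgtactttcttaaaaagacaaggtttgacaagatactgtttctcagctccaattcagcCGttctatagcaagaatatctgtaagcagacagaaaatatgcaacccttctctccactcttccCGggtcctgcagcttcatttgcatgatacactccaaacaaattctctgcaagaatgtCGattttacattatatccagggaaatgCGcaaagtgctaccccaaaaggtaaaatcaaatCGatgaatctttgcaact
Phlda2 promoter, chr7:143502475-143502774, minus strand: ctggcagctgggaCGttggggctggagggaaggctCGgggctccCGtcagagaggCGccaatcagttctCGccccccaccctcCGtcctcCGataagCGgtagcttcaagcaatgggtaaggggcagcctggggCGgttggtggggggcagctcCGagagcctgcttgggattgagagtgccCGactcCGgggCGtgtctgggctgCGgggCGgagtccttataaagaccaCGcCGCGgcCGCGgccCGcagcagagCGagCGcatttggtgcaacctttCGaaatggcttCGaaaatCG
Dlk1 promoter, chr12:109452573-109452872, plus strand: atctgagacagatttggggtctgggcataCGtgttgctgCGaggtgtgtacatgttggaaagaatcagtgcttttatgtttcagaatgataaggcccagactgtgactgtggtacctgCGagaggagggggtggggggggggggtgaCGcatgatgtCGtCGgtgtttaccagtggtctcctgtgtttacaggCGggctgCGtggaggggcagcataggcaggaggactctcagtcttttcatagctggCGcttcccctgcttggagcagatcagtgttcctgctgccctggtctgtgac
Snrpn promoter, chr7:60005150-60005449, minus strand: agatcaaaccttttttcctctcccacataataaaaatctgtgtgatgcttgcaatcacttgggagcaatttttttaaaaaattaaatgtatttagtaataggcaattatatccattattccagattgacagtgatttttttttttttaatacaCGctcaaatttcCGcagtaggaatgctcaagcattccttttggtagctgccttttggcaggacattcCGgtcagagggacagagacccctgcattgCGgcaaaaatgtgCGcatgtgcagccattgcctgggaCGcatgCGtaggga
Magel2 promoter, chr7:62376729-62377028, plus strand: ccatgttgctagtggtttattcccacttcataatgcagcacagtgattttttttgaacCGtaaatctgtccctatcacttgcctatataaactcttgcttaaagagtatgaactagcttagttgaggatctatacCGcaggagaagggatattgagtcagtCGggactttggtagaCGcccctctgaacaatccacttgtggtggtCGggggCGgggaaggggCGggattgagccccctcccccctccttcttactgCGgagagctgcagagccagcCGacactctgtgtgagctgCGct
Ndn promoter, chr7:62348027-62348326, plus strand: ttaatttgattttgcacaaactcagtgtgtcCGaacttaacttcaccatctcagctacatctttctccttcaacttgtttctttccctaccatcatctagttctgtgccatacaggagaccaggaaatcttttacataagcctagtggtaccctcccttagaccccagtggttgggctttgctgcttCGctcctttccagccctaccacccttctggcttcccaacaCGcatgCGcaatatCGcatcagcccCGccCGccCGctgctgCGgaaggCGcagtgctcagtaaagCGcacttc
In the windows shown, Plagl1 and Phlda2 held 26 CpG each, Ndn 11, Magel2 10, Dlk1 9, Snrpn 7 and Asb4 6, with 8 at the Asb4 start not shown. The 54 listed starts of the 37 members with an entry had a median of 15 CpG, and all 32851 starts in the table a median of 7. The letters CTTTGAT or CTTTGAA, sequences bound by the TCF/LEF factors of the WNT pathway, were searched on both strands and were in none of these 7 windows. They were in 1 of the 54 member windows (Peg12), or 1.85%, and in 8.65% of all windows; absence from a window says nothing of TCF/LEF sites elsewhere.

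The genes with the largest increases were a transcription factor, an ankyrin-repeat protein and a placental growth restrainer. Plagl1 (chromosome 10, 13060504 to 13131694 on GRCm38, plus strand), a zinc finger factor that is paternally expressed and can regulate other imprinted genes, had scaled counts of 323, 335, 305 and 326 in mutants and 47.3, 61.6, 45.0 and 35.5 in WT. The mutant libraries lay close together and far above WT: the increase was 6.80-fold (log2 fold change 2.77, SE 0.20, adjusted p = 8.15e-05). It held in all 21 alternative fits, the decidua covariate among them, with log2 fold changes of 2.62 to 2.90. Mutant replicate 2, with the least decidual marker RNA, had the highest Plagl1 value, within a narrow mutant range of 305 to 335. The covariate and genotype cannot be fully told apart, so the part of decidua in this increase remains untested.

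Phlda2 restrains growth of the placenta and is maternally expressed from the Kcnq1ot1 domain of distal chromosome 7 (143501545 to 143503150, minus strand). Its scaled counts were 24663, 17564, 14234 and 19886 in mutants and 3485, 4285, 3607 and 7558 in WT. All mutants lay above all WT libraries, by 4.16-fold on average (log2 fold change 2.06, SE 0.25, adjusted p = 0.000874). Per kilobase of merged exon it was the most abundant of the 42 genes in mutants, at 17027 scaled counts, and in WT it stood, at 4223, after H19 at 4870 and Snrpn at 4494. The call held in all 21 alternative fits.

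The other genes of that domain differed less or not beyond the test. Cdkn1c, an inhibitor of cyclin-dependent kinases, had 5658, 5726, 5577 and 7234 scaled counts in mutants and 2778, 5347, 2153 and 3753 in WT (1.82-fold, log2 fold change 0.86, SE 0.24, adjusted p = 0.0423). The nearest values were 5577 in mutant replicate 4 and 5347 in WT replicate 2. The call was lost in 11 of the 21 alternatives, including edgeR (adjusted p = 0.0629) and 7 of the 8 fits without 1 library (up to 0.111). With the decidua covariate the log2 fold change was 0.57 (adjusted p = 0.619). Cd81, a tetraspanin of the cell surface, rose 1.28-fold, with 4407, 3720.4, 4184 and 3720.1 in mutants and 3260.5, 3061, 2956 and 3209 in WT (log2 fold change 0.36, SE 0.08, adjusted p = 0.0128). Its log2 fold change was 0.36 in the 6 Y-positive libraries and 0.31 with the decidua covariate, where the adjusted p no longer passed (0.0889 in the Y-positive libraries and 0.363 with the covariate). Kcnq1ot1, the paternally expressed long RNA that silences the domain in cis, averaged 1486 ± 121 in mutants and 1248 ± 209 in WT (adjusted p = 0.187). Slc22a18, a transporter-like membrane protein, had log2 fold change 0.67 (adjusted p = 0.138), and passed without mutant replicate 4 (0.0297) and with array weights (0.0393). Tssc4 had log2 fold change 0.11 (adjusted p = 0.558). Exons of Cdkn1c share 30.7% of their length with an antisense gene and the kit does not keep strand, so those reads cannot be told apart.

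**Figure D2:**
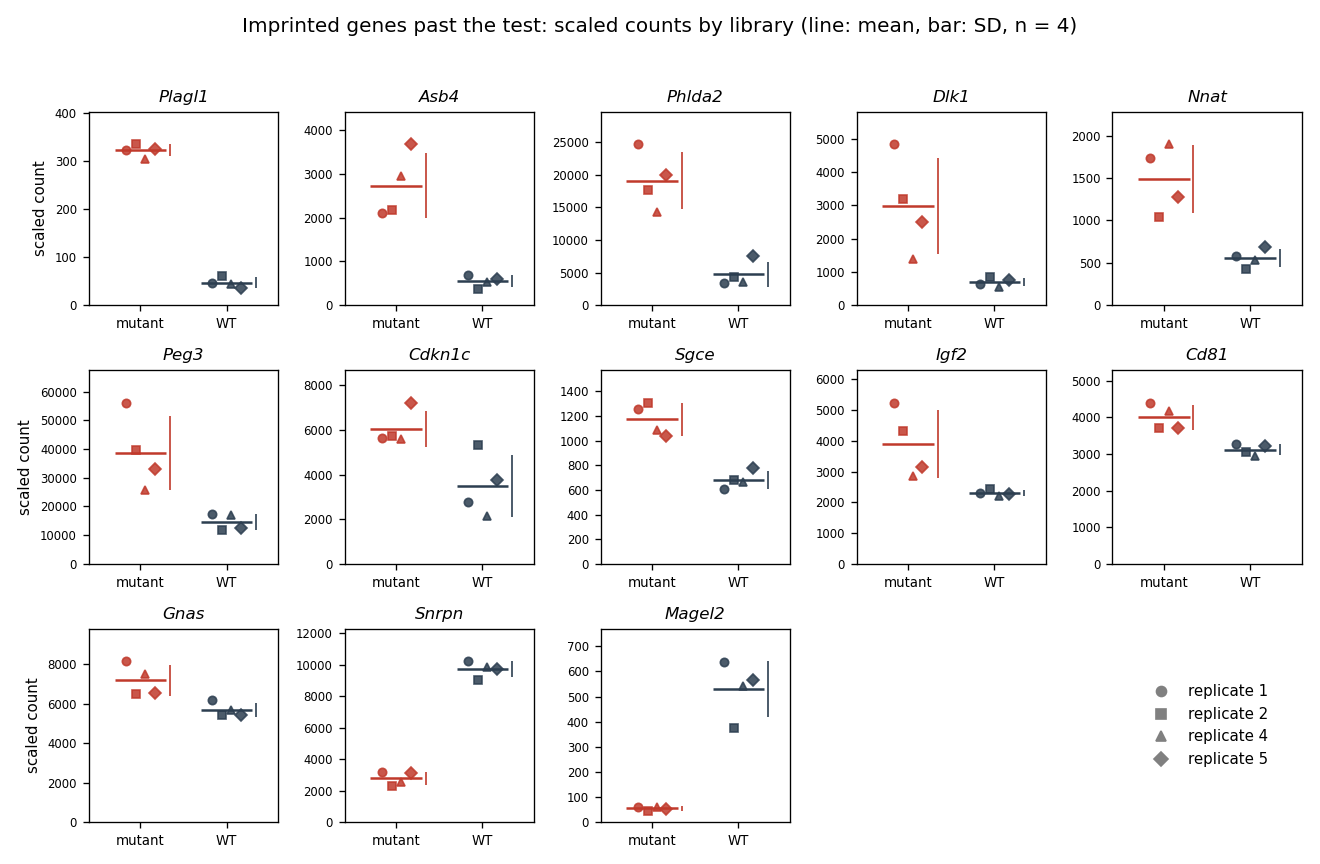
Scaled counts of the 13 imprinted genes past the test, mutant left and WT right in each panel, each axis starting at 0; markers are libraries by replicate number, lines means and bars SD over 4 libraries. In all 13 panels the mutant and WT libraries do not overlap, with the gap narrowest in proportion for Cdkn1c (5577 and 5347) and Gnas (6468 and 6194).

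Ascl2, a bHLH factor of trophoblast progenitors in the same region, varied more among mutants than between genotypes. Its scaled counts were 295, 2619, 1081 and 3026 in mutants and 1148, 1297, 889.6 and 2485 in WT, and it did not pass (log2 fold change -0.09, SE 0.67, adjusted p = 0.946). The lowest of all, 295, was in mutant replicate 1, the library with the least extraembryonic ectoderm marker RNA. Sfmbt2, a Polycomb protein needed in trophoblast, had 1591 there, against 4315, 3244 and 4701 in the other mutants and 2801 to 3533 in WT. Gab1, a docking adaptor of receptor tyrosine kinases, had 5043 there, against 9090.0, 6173 and 9206 in the other mutants and 6858 to 7186 in WT. In all 3 genes the order of the 4 mutant libraries was that of the summed extraembryonic ectoderm markers (replicate 5 highest, then 2, 4 and 1). That order was shared by 4 of 40 tested members, the fourth being Mkrn3, and by 4.35% of all genes tested. Leaving out mutant replicate 1 turned the log2 fold change of Ascl2 to 0.60, with no call.

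At the Igf2-H19 locus the growth factor gene rose. Igf2 had 5245, 4314, 2854 and 3146 scaled counts in mutants and 2314, 2418, 2204 and 2263 in WT. The WT values were tight, whereas the mutants spread widely and all lay above WT (1.64-fold, log2 fold change 0.72, SE 0.17, adjusted p = 0.0231). The call was lost without mutant replicate 2 (0.0514), without WT replicates 1, 4 or 5 in turn (0.0571 to 0.0634) and in the 6 Y-positive libraries (0.125), at log2 fold changes of 0.65 to 0.74; with the decidua covariate the log2 fold change was 1.31. H19, the maternally expressed non-coding RNA beside it, had 14956, 17292, 14367 and 12999 in mutants and 11249, 12808, 11119 and 12747 in WT. These did not overlap but missed the threshold (log2 fold change 0.31, SE 0.09, adjusted p = 0.0505), and H19 passed in 6 alternatives, among them DESeq2 (0.0146) and the fit without mutant replicate 5 (0.0316). The log2 ratio of Igf2 to H19 was -1.97 ± 0.34 in mutants and -2.38 ± 0.09 in WT (SD, n = 4 each). Exons annotated to Igf2 share 62.8% of their length with a same-strand fusion gene model, not used here, so the count may miss or mix reads of that model.

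H19 and Igf2 each contain a microRNA gene, which gives their transcripts a second product. Their mature sequences, from RefSeq, are shown with the seed (bases 2 to 8) in capitals, because the seed selects the targets. The mature microRNAs were not measured in these poly-A based libraries.
mmu-miR-675-5p, chr7:142577112-142577133, minus strand: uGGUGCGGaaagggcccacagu
mmu-miR-675-3p, chr7:142577078-142577099, minus strand: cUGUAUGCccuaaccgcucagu
mmu-miR-483-5p, chr7:142654968-142654989, minus strand: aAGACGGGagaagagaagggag
mmu-miR-483-3p, chr7:142654932-142654952, minus strand: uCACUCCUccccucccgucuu
mmu-miR-335-5p, chr6:30741314-30741336, plus strand: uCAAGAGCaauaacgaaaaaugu
The first pair lies in H19, the second pair in Igf2 and miR-335 in Mest; no seed is shared among these 5. RefSeq places 3 further hosts among the non-coding RNAs of chromosome 12: Mirg with 14 microRNA genes, Rian with 3 and Meg3 with 2.

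Of the 4 members at the Dlk1-Meg3 locus of chromosome 12, Dlk1 was called; Dio3, another gene of this locus outside the 42, is given further on. Dlk1, a transmembrane relative of Notch ligands that holds back differentiation and is paternally expressed (109452823 to 109463336, plus strand), had 4842, 3200.1, 1395 and 2517 scaled counts in mutants and 646, 856, 558 and 749 in WT. Every mutant lay above every WT library, but mutant replicate 4 far less so than replicate 1 (3.91-fold, log2 fold change 1.97, SE 0.33, adjusted p = 0.00408). The call held in all 21 alternatives, and with the decidua covariate the log2 fold change was 2.96. Meg3, a maternally expressed long RNA of the same locus, had 5235, 3866, 2326 and 2281 in mutants and 4829, 3489, 3818 and 4133 in WT (log2 fold change -0.33, adjusted p = 0.438). Mutants 4 and 5 were below all WT libraries and mutants 1 and 2 were within or above them, and without mutants 4 and 5 the log2 fold change was 0.16. Rian, which hosts small nucleolar RNAs, averaged 1336 ± 362 in mutants and 1424 ± 73.0 in WT (adjusted p = 0.666), and Mirg averaged 220.3 ± 115 in mutants and 269 ± 17.6 in WT (adjusted p = 0.441). The log2 ratio of Dlk1 to Meg3 was -0.25 ± 0.37 in mutants and -2.54 ± 0.39 in WT, with no overlap. This ratio, like that of the other neighbours below, was picked after the values were seen and is given without a test.

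**Figure D3:**
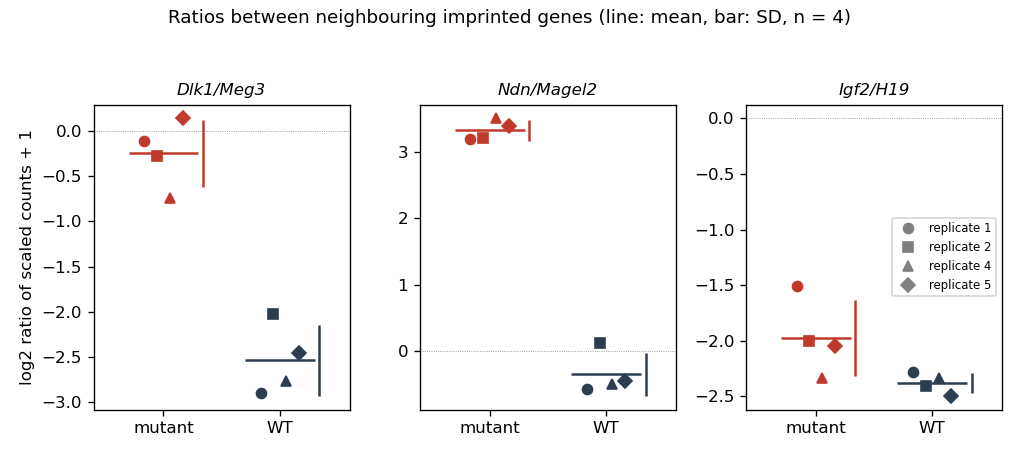
Log2 ratio of scaled counts + 1 between neighbouring imprinted genes, mutant left and WT right, with markers for libraries, lines for means and bars for SD over 4 libraries. Dlk1/Meg3 and Ndn/Magel2 do not overlap between mutant and WT, whereas Igf2/H19 in mutant replicate 4 lies in the WT range.

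At the Peg3 domain of proximal chromosome 7, Peg3, a large zinc finger protein of paternal expression, had 56168, 39578, 25751 and 32989 scaled counts in mutants and 17203, 11784, 16895 and 12572 in WT. The lowest mutant stood above the highest WT library (2.57-fold, log2 fold change 1.36, SE 0.23, adjusted p = 0.00406). In the 6 Y-positive libraries the log2 fold change was 1.12 (adjusted p = 0.0571), and the log2 fold change was 2.02 with the decidua covariate. Usp29, whose transcript starts beside that of Peg3 on the other strand, had 89.4, 38.7, 32.0 and 33.1 in mutants and 21.3, 5.68, 30.3 and 11.8 in WT, and Zim1, a maternally expressed zinc finger gene, had 207, 74.6, 84.7 and 64.0 in mutants and 55.7, 7.58, 42.4 and 40.2 in WT. Neither overlapped between genotypes and neither passed (log2 fold changes 1.52 and 1.66, adjusted p = 0.0921 and 0.104), though Zim1 passed in DESeq2 (0.0423). Mutant replicate 1 was highest for all 3 genes of the domain, and it also held the most lateral and extraembryonic mesoderm marker RNA.

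At the Peg10 domain of proximal chromosome 6, Asb4 and Sgce rose. Asb4, a maternally expressed adaptor of a ubiquitin ligase (5383386 to 5433022, plus strand), had 2114, 2174, 2949.5 and 3676 scaled counts in mutants and 689, 368, 537 and 603 in WT (4.95-fold, log2 fold change 2.31, SE 0.23, adjusted p = 0.00032). The lowest mutant was above the highest WT library by a wide margin, and the call held in 20 of 21 alternatives; with the decidua covariate the log2 fold change was 1.80 (adjusted p = 0.0619). By decidua marker sum the mutants ran from replicate 2 (5495) through 1 (19953) and 5 (32972) to 4 (64942). By Asb4 they ran from replicate 1 (2114) through 2 (2174) and 4 (2949.5) to 5 (3676). The part of decidua in the Asb4 increase was not tested. Sgce, the epsilon sarcoglycan, is paternally expressed and had 1259, 1310.4, 1084 and 1037 in mutants and 605, 677, 664 and 778 in WT (1.72-fold, log2 fold change 0.78, SE 0.12, adjusted p = 0.00228), a call kept in all 21 alternatives. Peg10, a retrotransposon-derived gene needed for placenta formation, had 3154, 2805, 1964 and 3254 in mutants and 1899, 2004, 2034 and 2074 in WT (log2 fold change 0.45, adjusted p = 0.0685). Mutant replicate 4 alone lay in the WT range, and without it Peg10 passed (log2 fold change 0.61, adjusted p = 0.00206).

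Both decreases were in the Snrpn-Ndn domain of chromosome 7, the mouse counterpart of the human Prader-Willi region. Snrpn encodes a spliceosome protein and its promoter overlaps the control region of the domain (59982495 to 60140219, minus strand). It had 3183, 2281, 2556 and 3118 scaled counts in mutants and 10229.5, 9024, 9863 and 9694 in WT. The 2 sets were tight and far apart: Snrpn fell 3.51-fold (log2 fold change -1.81, SE 0.11, adjusted p = 3e-05). Magel2, a MAGE protein that regulates ubiquitin ligases in endosomal sorting (62377010 to 62381640, plus strand), fell 9.32-fold, the largest change of the 40 genes, with 62.5, 44.2, 61.2 and 53.7 in mutants and 637, 374, 541 and 567 in WT (log2 fold change -3.22, SE 0.21, adjusted p = 5.27e-05). Both calls held in all 21 alternatives. Epiblast markers, whose sum in mutants was 28966 to 38362 against 112649 to 125576 in WT, moved the same way, and their part in these decreases was not tested.

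The other genes of the domain did not all follow. Ndn, a MAGE protein whose gene lies next to Magel2, had 575, 415, 702 and 573 scaled counts in mutants and 429, 407, 382 and 413 in WT (log2 fold change 0.45, SE 0.16, adjusted p = 0.0899). The only mutant inside the WT range was replicate 2, the library with the least decidual marker RNA; without it Ndn passed (0.0174), it passed in DESeq2 (0.0317), and with the decidua covariate its log2 fold change was -0.08. The log2 ratio of Ndn to Magel2 was 3.32 ± 0.15 in mutants and -0.35 ± 0.32 in WT, with no overlap. Mkrn3, a ring finger protein, had 48.5, 84.7, 78.1 and 91.4 in mutants and 111, 109, 132 and 167 in WT, all mutants below all WT libraries, and missed the threshold (log2 fold change -0.79, SE 0.26, adjusted p = 0.0727; 0.0328 in DESeq2). Peg12 was low, at 10.1 to 40.0 in mutants and 9.47 to 17.8 in WT. Ube3a, a ubiquitin ligase at the far end of the domain, had 5199, 5624, 5726 and 5614 in mutants and 5448, 5498, 5716 and 5614 in WT, and its log2 fold change of -0.01 had a 95% interval of -0.13 to 0.11. It is maternally expressed by textbook assignment, and which alleles were read in these embryos was not measured.

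Further transcripts of this domain, picked after their values were seen, are given as values. Snhg14, a long paternally expressed RNA that runs from the Snrpn region across Ube3a on the opposite strand of Ube3a, had 238, 142, 183 and 192 scaled counts in mutants and 866, 966, 995 and 949 in WT (5.06-fold lower, log2 fold change -2.34, SE 0.16). Its exons overlap 8.74% of the Ube3a exon length, where reads cannot be assigned to a strand. Gm38393, a gene model that shares 589 bases, or 27.3%, of the Snrpn exon length on the same strand, had 67.9, 50.6, 39.5 and 69.7 in mutants and 279, 300.3, 319.6 and 253 in WT (5.10-fold lower). The count of Snrpn may be split between these models.

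**Figure D4:**
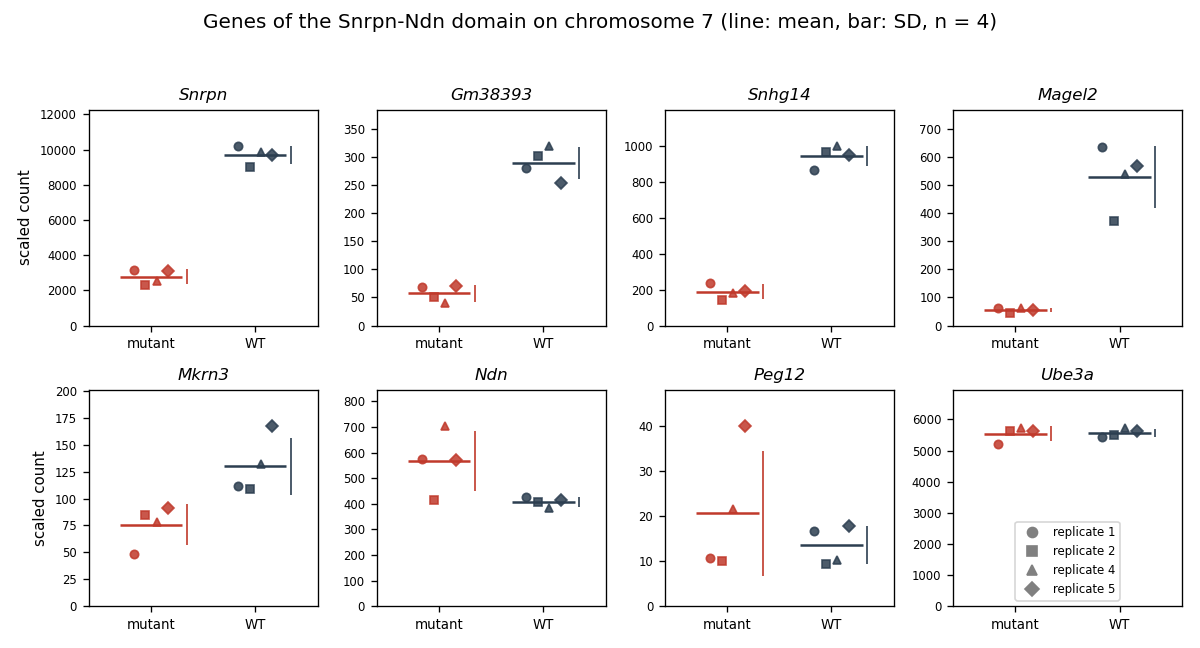
Scaled counts of 8 genes of the Snrpn-Ndn domain, mutant left and WT right in each panel, axes from 0; markers are libraries, lines means and bars SD over 4 libraries. Snrpn, Gm38393, Snhg14, Magel2 and Mkrn3 are lower in all mutants than in all WT libraries, whereas Ndn, Peg12 and Ube3a overlap between genotypes.

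Of the 12 genes that stand alone, 3 were higher: Plagl1, described above, Nnat and Gnas. Nnat, a small membrane protein that is paternally expressed, had 1732, 1042, 1901 and 1281 scaled counts in mutants and 584, 426, 537 and 685 in WT (2.63-fold, log2 fold change 1.39, SE 0.21, adjusted p = 0.00254); the call held in 20 of 21 alternatives, and with the decidua covariate the log2 fold change was 1.10 (adjusted p = 0.215). Gnas, the stimulatory G protein alpha subunit of a locus with transcripts from both parents, had 8160.4, 6468, 7508 and 6565 in mutants and 6194, 5406, 5686 and 5445 in WT (1.26-fold, log2 fold change 0.33, SE 0.09, adjusted p = 0.032), a call lost in 10 of 21 alternatives, with log2 fold changes of 0.25 to 0.36 in those 10 (adjusted p up to 0.508, with the decidua covariate). Exons of antisense genes cover 8.83% and 13.1% of its exon length. Grb10, an adaptor that restrains insulin and IGF signalling, averaged 15288 ± 2000.2 in mutants and 13579.9 ± 1785 in WT (log2 fold change 0.17, 95% interval -0.08 to 0.43). At the Igf2r-Airn and Mest-Copg2 loci no member passed. Igf2r, the receptor that clears IGF2, averaged 5120.0 ± 1074 in mutants and 4477 ± 812 in WT (adjusted p = 0.547), and its antisense partner Airn averaged 45.0 ± 12.6 in mutants and 25.9 ± 11.6 in WT (adjusted p = 0.193). Mest, an alpha/beta-hydrolase-fold protein, had 14589.6, 6876, 4286 and 5945 in mutants and 6259 to 8605 in WT, with a log2 fold change of 0.00; it and Copg2 share 912 exon bases on opposite strands. Of the genes that stand alone, Impact, Inpp5f, Zdbf2, Zrsr1 and Nap1l5 did not pass, with log2 fold changes of -0.25 to 0.24. Slc22a3, of the Igf2r-Airn locus, and Rasgrf1, which stands alone, were too low to test, with at most 23.7 and 19.5 scaled counts in any library.

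Across the 4 mutants, 8 of the 40 tested genes had the order of the lateral and extraembryonic mesoderm markers (replicate 1 highest, then 2, 5 and 4), against 8.85% of all genes tested: Peg3, Igf2r, Zdbf2, Dlk1, Inpp5f, Igf2, Usp29 and Mest. The order of the decidua markers (replicate 4, then 5, 1 and 2) was that of 1 member, Nap1l5, against 7.22% of all genes. These orders describe 4 libraries.

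**Figure D5:**
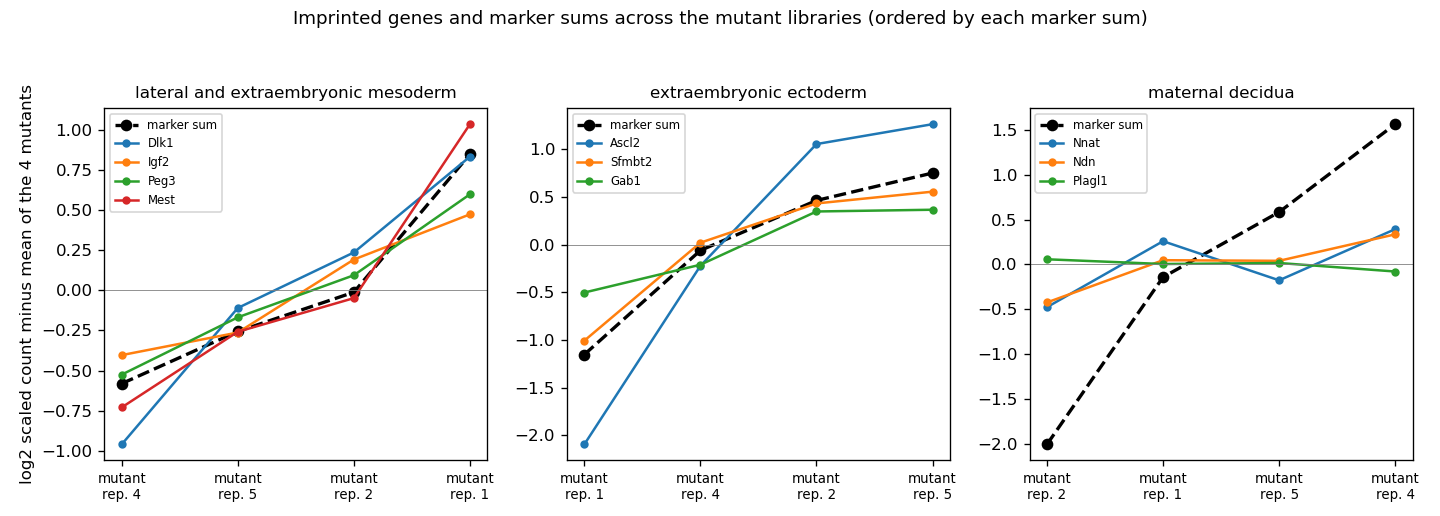
Log2 scaled counts of named imprinted genes in the 4 mutant libraries, each minus its mean over those 4, with the summed markers of a tissue as a dashed line and the libraries ordered by that sum. Dlk1, Igf2, Peg3 and Mest follow the mesoderm order, and Ascl2, Sfmbt2 and Gab1 the extraembryonic ectoderm order, whereas Nnat, Ndn and Plagl1 do not have the full decidua order. Nnat and Ndn are highest in replicate 4 and lowest in replicate 2, like the decidua sum, and Plagl1 is the reverse in these libraries.

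Outside the 42, a list of 50 other imprinted genes had 41 that could be tested, of which 5 were higher and 1 lower (14.6%, near the 15.6% of all genes), with a median log2 fold change of 0.16. Slc38a4, an amino acid transporter of the placenta and liver, had 19752, 13644, 10078 and 14129 scaled counts in mutants and 3506, 2612, 3408 and 5396 in WT (3.88-fold, adjusted p = 0.000915), and its call held in all 21 alternatives. Pon2 (1.52-fold, adjusted p = 0.0145), Phactr2 (1.98-fold, 0.0208) and Peg13 (1.84-fold, 0.036) were also higher. With the decidua covariate none of these 3 passed: the log2 fold change was 0.62 for Pon2, 0.40 for Phactr2 and 0.50 for Peg13, against 0.60, 0.99 and 0.88 without it. Dio3, an enzyme that inactivates thyroid hormone, had 72.2, 51.6, 1134 and 376 in mutants and 18.9 to 32.5 in WT (adjusted p = 0.0404); its mutant order put replicates 4 and 5 first, as did the decidua markers, and with the decidua covariate its log2 fold change was -0.74. Calcr, the calcitonin receptor, fell 5.94-fold, with 6.46, 20.3, 17.9 and 17.1 in mutants and 79.8, 90.9, 113 and 79.3 in WT (adjusted p = 0.00208), and with the decidua covariate its log2 fold change was -2.79, against -2.57 without it, at an adjusted p of 0.0971.

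The enzymes and factors that set and keep imprints were examined as another list, of 29 genes with 27 tested, of which 1 was higher and 6 lower (25.9% called, against 15.6% of all genes, of which 7.55% were lower; median log2 fold change -0.13, against -0.0018 over all genes). The de novo methyltransferases led: Dnmt3a had 3299, 2842, 2766 and 2850.3 scaled counts in mutants and 9839.8, 10447, 11097 and 9357 in WT (3.47-fold lower, adjusted p = 1.15e-05), and Dnmt3b, also used here as an epiblast marker, averaged 25365 ± 3759.6 in mutants and 84938 ± 5095 in WT (3.37-fold lower, adjusted p = 2.79e-05). Tet1, an enzyme that oxidises 5-methylcytosine (1.73-fold lower, adjusted p = 0.0133), Ctcf (1.21-fold lower, 0.0237) and Trim28, the corepressor of imprint-binding zinc finger proteins (1.23-fold lower, 0.0473), were also lower, and Tet2 was higher (1.75-fold, 0.0266). Dnmt1, the maintenance methyltransferase, averaged 10308 ± 1759.9 in mutants and 11003 ± 1547 in WT (adjusted p = 0.692), and Zfp57, which binds methylated imprinting control regions, averaged 549 ± 118 in mutants and 376 ± 57.1 in WT (adjusted p = 0.0854). Of the lower genes, Dnmt3a and Dnmt3b kept their call with the decidua covariate and without mutant replicates 4 and 5. Ctcf did not pass in these fits, at log2 fold changes of -0.26 with the covariate and -0.27 without the 2 mutants, against -0.28 in all libraries. With the covariate Tet1 was at -0.38, Trim28 at -0.15 and Tet2 at 0.33, against -0.79, -0.29 and 0.81 without it, and none of these 3 passed.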

How the data were processed

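RNA of 8 whole embryos was made into libraries by SMART-Seq v4 amplification over 12 cycles and KAPA Hyper Prep (per the labels' protocols). That kit does not keep strand. The submitters' processing notes name cutadapt 1.6, STAR 2.5.0a, HTSeq 0.5.3, DESeq and the mm10 build. The sources used here do not give settings or the treatment of reads that map to several places. The deposited signal values are, per the file's own name, gene counts scaled by the authors with DESeq. All values were whole multiples of 1 step per library within 0.01 of a read, so reads were recovered (100% whole), and no pair of replicates agreed within sampling noise (chi-square per degree of freedom 17.3 to 75.3). Reads carry no molecular identifiers.

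Genotypes were compared with limma 3.58.1 (R 4.3.3) on log2(scaled count + 1) with a trended prior, two-sided, for 15600 genes with at least 10 in at least 4 libraries; quoted folds are 2 to the power of that log2 change and understate the change of low genes. On the recovered reads edgeR 4.0.16 and DESeq2 1.42.0 were alternatives, with the other settings given in the closing part. The fit was tested on simulated counts drawn independently, without tissue or sex differences between libraries. That test does not bear on such differences. Coordinates and exon lengths come from GENCODE M21 (GRCm38) by gene ID; 42 of 42 members matched, and 37 had a RefSeq promoter entry. Every member is named; from the other lists all genes past the threshold are named if 6 or fewer, otherwise the 6 with the smallest p. The members and lists were chosen with earlier results of these data known. A decidua covariate, the mean log2 level of the decidua markers in each library, was added after seeing the data.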

Additional observations from a re-analysis of the deposited data

Results flagged for a closer look

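Each gene was looked at in each genotype for 1 library set apart from the other 3, in 84 groups of 4; chance alone flags about 1 in 20 such groups, and 4 were found. Cdkn1c had 7234 scaled counts in mutant replicate 5, against 5577 to 5726 in the other mutants. Usp29 had 89.4 in mutant replicate 1, against 32.0 to 38.7 in the others, and its neighbour Zim1 had 207 in the same library, against 64.0 to 84.7. Rasgrf1, which was too low to test, had 19.5 in WT replicate 1, against 3.55 to 5.20 in the other WT libraries.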

How the results depend on the processing

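The 21 alternatives used edgeR or DESeq2, array weights, quantile normalization or median centring, a pseudocount of 0.5 or 5, another filter (none, or a mean of 50 or more), or a block on the replicate number, left out each of the 8 libraries in turn, or took the 6 libraries with Y-linked transcripts, the set without mutant replicates 4 and 5, and the decidua covariate. Plagl1, Phlda2, Dlk1, Sgce, Snrpn and Magel2 kept their calls in all 21. Same-numbered mutant and WT libraries did not deviate together (correlations of -0.19 to -0.04), and pairs with different numbers ranged from -0.22 to 0.24. No pairing by number was seen, but this check cannot exclude a shared litter or batch. Under the block the members were 11 higher and 2 lower, the other imprinted genes 3 higher and the maintenance genes 3 lower. Median centring moved the median of all genes by -0.085.

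In the libraries with Y-linked transcripts, 528 genes were higher and 493 lower over all genes, with 7 members and 2 other imprinted genes higher and 0 maintenance genes higher and 3 lower. Without mutants 4 and 5 it was 707 higher and 723 lower, with 1 other imprinted gene higher and 2 lower, and 0 maintenance genes higher and 2 lower. With the decidua covariate, which leaves 1 degree of freedom fewer, it was 202 higher and 175 lower, with 6 members and 1 other imprinted gene higher, and 0 maintenance genes higher and 2 lower. That covariate and genotype cannot be fully told apart, since the marker sums did not overlap between mutants and WT. The count of other imprinted genes lower was 4 under median centring and under quantile normalization, 3 with array weights and 5 in DESeq2, where 12 were higher. Maintenance genes higher were 2 with array weights and in DESeq2. Leaving out 1 library in turn gave 853 to 1295 genes higher and 734 to 1144 lower over all genes, 8 to 11 members higher and 2 lower, 2 to 6 other imprinted genes higher and 1 to 2 lower, and 0 to 2 maintenance genes higher and 3 to 5 lower. The cause of these differences was not tested.

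The log2 fold changes that turned sign belonged to genes without a call, apart from Dio3. Nap1l5 was 0.11 with a pseudocount of 5, 0.68 in edgeR and 0.69 in DESeq2. Under median centring Mest was -0.0812, Inpp5f -0.0042, Sfmbt2 -0.0544 and Gab1 -0.0585; under quantile normalization Ube3a was 0.0257. Ascl2 was 0.55 with array weights, 0.270 in edgeR and 0.271 in DESeq2, and with array weights Mest was -0.0534 and Ube3a 0.0019. In the libraries with Y-linked transcripts Ascl2 was 0.32, Igf2r -0.0154, Sfmbt2 -0.0463 and Gab1 -0.0031. Without mutants 4 and 5, Meg3 was 0.16, Rian 0.15, Mirg 0.25, Copg2 0.0176, Peg12 -0.30, Zrsr1 -0.41, Sfmbt2 -0.26, Gab1 -0.0510 and Zdbf2 0.12. With the decidua covariate Tssc4 was -0.0784, Meg3 0.50, Rian 0.28, Mirg 0.86, Copg2 0.0765, Ndn -0.0776, Peg12 -0.86, Zrsr1 -0.98, Sfmbt2 -0.25, Zdbf2 0.53 and Dio3 -0.74. Leaving out 1 library, Ascl2 ranged from -0.51 to 0.60, Rian from -0.29 to 0.0077, Mest from -0.34 to 0.25, Copg2 from -0.12 to 0.0726, Ube3a from -0.0242 to 0.0222, Nap1l5 from -0.99 to 0.92, Zrsr1 from -0.12 to 0.47, Sfmbt2 from -0.15 to 0.37 and Gab1 from -0.10 to 0.19.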
